A study of Drosophila melanogaster with 5 samples.

Results

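The 9 JAK-STAT pathway genes described here are upd1, upd2, upd3, dome, hop, Stat92E, Socs36E, et and Ptp61F. They were picked by gene name from the 14094 genes of the deposited count table, and each name matched 1 row. The RNA came from whole ovaries that were dissected from adult Drosophila melanogaster between 1 and 3 days after they eclosed. The genotype labelled BEAF 32-AB KO, called the knockout below, had 2 libraries. The control, titled as wild type and labelled nosGAL4;MKRS/TM6, had 3 libraries. The design text of the series gives duplicates per genotype, so it differs from the labels in the number of controls, and all 3 were used. BEAF-32 is a DNA-binding insulator factor found close to many gene starts. nosGAL4 expresses the GAL4 activator in germ cells, and MKRS and TM6 are balancers of the third chromosome. The knockout label names neither the driver nor the balancers, so other differences between the stocks cannot be told apart from that of BEAF-32. Whether the libraries were made from separate sets of animals is not stated, so a p-value here reflects variation among libraries that may be technical.

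In the JAK-STAT pathway, secreted Unpaired ligands bind the receptor Domeless, which activates the Janus kinase Hopscotch. The kinase phosphorylates the transcription factor Stat92E, which moves into the nucleus and switches on target genes, among them Socs36E, whose product damps the signal. In the fly ovary the polar cells at the ends of each egg chamber secrete Unpaired, and the signal patterns the follicle epithelium and recruits the border cells. Nearer the stem cells, signalling in the escort cells helps to maintain the germline stem cell niche.

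Libraries held 38820176 and 47805964 estimated counts in the knockout, against 41105107 in control 1 and 8448850 and 10388643 in controls 2 and 3. Levels are counts scaled to the library total (counts per 1e6, CPM). Means are given ± SD over 2 knockout and 3 control libraries. Differences are log2 fold changes of knockout over control with a standard error (SE). Fold changes below are on this log2 scale, and linear differences are written as -fold or as ratios. Adjusted p-values are from edgeR's quasi-likelihood test over 9241 tested genes with Benjamini-Hochberg adjustment. A gene was called at an adjusted p under 0.05. The targeted gene, BEAF-32, was at 50.2 and 52.8 CPM in the knockout and at 84.9, 137 and 144 CPM in the control (log2 fold change -1.19, SE 0.26, adjusted p = 0.0157) and present in every library. BEAF-32 lost this call when knockout 1 was left out (-1.26, adjusted p = 0.107) and when knockout 2 was (-1.17, adjusted p = 0.126). Scaled on the germ line genes vas, aub, otu and ovo, it was at -0.32 and not called (adjusted p = 0.414). In that scaling the median of all tested genes was 1.02, beside 0.11 in the reported fit, so values as a whole lay higher. Of the scaling genes, vas (-0.74) and otu (-2.60) were themselves called lower in the reported fit. Controls 2 and 3 differed by gene length from control 1 and from the knockout. Among tested genes with a mean over 1 CPM, the median log2 ratio of control 1 over controls 2 and 3 was -0.51 for genes with up to 1000 exon bases and 1.01 for genes over 8000. Over all length classes, the median of the knockout over control 1 lay between -0.17 and 0.28. That of the knockout over controls 2 and 3 lay between -0.23 and 1.54.

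The ligand genes upd1 and upd3 were higher in the knockout, and upd2 was barely detected in any library. All 3 lie on the X chromosome within 68638 bases, in the order upd2, upd3, upd1 (dm6 coordinates 18240654 to 18309291). Ligand upd1, which polar cells secrete, was at 9.99 and 8.24 CPM in the knockout and at 1.05, 0 and 0.578 CPM in the control. The knockout libraries were both above every control, and control 2 had no count. The log2 fold change was 3.92 (SE 0.93, adjusted p = 0.0212).

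Cytokine upd3, known for its release by hemocytes and damaged gut, was at 4.56 and 2.82 CPM in the knockout and at 0.438, 0.118 and 0.0963 CPM in the control. The groups did not overlap, and the log2 fold change was 3.86 (SE 0.80, adjusted p = 0.0138). The single counts behind the control values were 18, 1 and 1, and upd3 passed the filter on low counts only through the knockout libraries. Ligand upd2, which the fat body releases as a nutrient signal, had 2 and 2 counts in the knockout libraries and 3, 0 and 1 in the controls, too few to be tested. Its pooled ratio, knockout over control, was 0.692 with an exact 95% interval of 0.129 to 3.72, which covers counting error only. The pooled ratios of upd1 (11.04) and upd3 (10.8) lie above that interval, and a difference in upd2 within it was not detectable at this depth, where 3 counts correspond to between 0.0628 and 0.355 CPM per library.

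Per kilobase of annotated exon, upd1 made up 60.6% and 67.1% of the summed ligand level in the knockout, and 58.9%, 0% and 66.8% in the control. The summed ligand level was 5.28 and 3.93 CPM per kilobase in the knockout and 0.569, 0.0533 and 0.277 in the control. That sum was higher in every knockout library than in every control. The exact permutation test, two-sided by doubling the smaller tail, gave p = 0.2, the smallest that doubling allows with 10 groupings. Leaving out a knockout library leaves 1, which is assumed to vary like the controls, and 475 genes were then called higher without knockout 1 and 591 without knockout 2, beside 2102 with both. Without knockout 1, upd1 was at 3.71 (adjusted p = 0.171) and upd3 at 3.44 (adjusted p = 0.167). Without knockout 2, upd1 was at 4.17 (adjusted p = 0.119) and upd3 at 4.30 (adjusted p = 0.0851). The folds thus stayed of like size while the calls were lost. For upd1 the call was also lost without control 3 (3.74, adjusted p = 0.0562). The size of both folds moved with control 1. Without control 1, upd1 was at 4.89 and upd3 at 5.12, and against control 1 alone they were at 3.03 and 2.98.

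**Figure D1:**
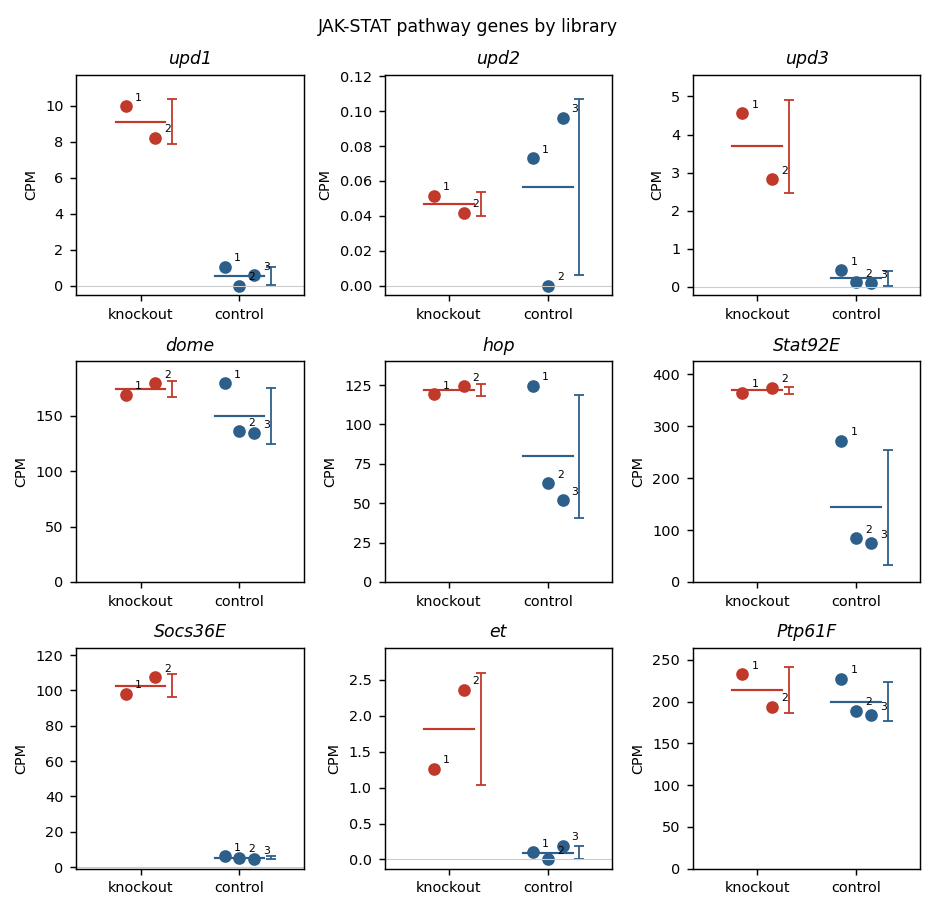
Levels of the 9 JAK-STAT genes in CPM (vertical axes, each from 0, with its own scale) in the 2 knockout and 3 control libraries, numbered by replicate. Lines are group means and error bars are SD. Socs36E, upd1, upd3 and et lie well above the controls in both knockout libraries, whereas control 1 lies with the knockout libraries for dome and hop.

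The receptor gene dome was not called, while its neighbour et, which passed the filter on low counts only through the knockout libraries, was called. Both lie on the minus strand of X (dome at 19676061 to 19683518, et at 19672312 to 19675891), with 169 bases between them. The receptor gene dome was at 169 and 179 CPM in the knockout and at 179, 136 and 134 CPM in the control. Control 1 lay at the level of the knockout libraries, so the groups overlapped. The log2 fold change was 0.26 (SE 0.20, adjusted p = 0.343).

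The gene et (eye transformer) encodes a shorter relative of Domeless that dampens the pathway. It was at 1.26 and 2.36 CPM in the knockout and at 0.0973, 0 and 0.193 CPM in the control, from 49 and 113 counts against 4, 0 and 2. All knockout values were above all control values, and the log2 fold change was 4.14 (SE 0.95, adjusted p = 0.0186). The pooled counts gave a ratio of 18.7, with an exact 95% interval of 8.40 to 51.7 for counting error only. With 1 knockout library the call was lost, at 4.42 without knockout 1 (adjusted p = 0.137) and at 3.69 without knockout 2 (adjusted p = 0.194). Per kilobase, et made up 1.49% and 2.59% of the summed level of et and dome in the knockout, and 0.11%, 0% and 0.289% in the control. An exon of et overlaps one of Zw, a gene on the opposite strand for an enzyme of the pentose phosphate pathway, and the strand setting of the counting is not given in the sources used here. Zw was at 45.6 and 47.1 CPM in the knockout and at 20.0, 21.3 and 18.2 CPM in the control (log2 fold change 1.27, SE 0.15, adjusted p = 0.00242), and its part in the et counts was not tested.

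Neither the kinase gene hop nor the transcription factor gene Stat92E was called, and for both the control libraries disagreed. The Janus kinase gene hop (X, 11360930 to 11368098, minus strand) was at 119 and 124 CPM in the knockout and at 125, 62.7 and 52.1 CPM in the control. Control 1 was level with the knockout libraries, and controls 2 and 3 averaged 57.4 CPM. The log2 fold change was 0.64 (SE 0.39, adjusted p = 0.233). Stat92E (3R, 20535323 to 20552311, minus strand) was at 365 and 374 CPM in the knockout and at 272, 84.7 and 75.1 CPM in the control. Its groups did not overlap, but control 1 was 3.41-fold above the mean of controls 2 and 3. The log2 fold change of 1.39 (SE 0.59) had an adjusted p of 0.107.

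The size of these differences was set by which control was used. Without control 1, Stat92E was called at 2.26 (adjusted p = 6.21e-07), hop at 1.14 (adjusted p = 3.95e-05) and dome at 0.41 (adjusted p = 0.00773). Against control 1 alone, the only control of the knockout's depth, the log2 fold changes were 0.34 for Stat92E, -0.14 for hop and -0.14 for dome. The error of that fit was taken from the 2 knockout libraries only. A depth class term gave 0.46 for Stat92E (adjusted p = 0.0259) and -0.02 each for hop and dome. Since both shallow libraries are controls, that contrast also sets the knockout libraries against control 1 alone, an arm of 1 library.

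**Figure D2:**
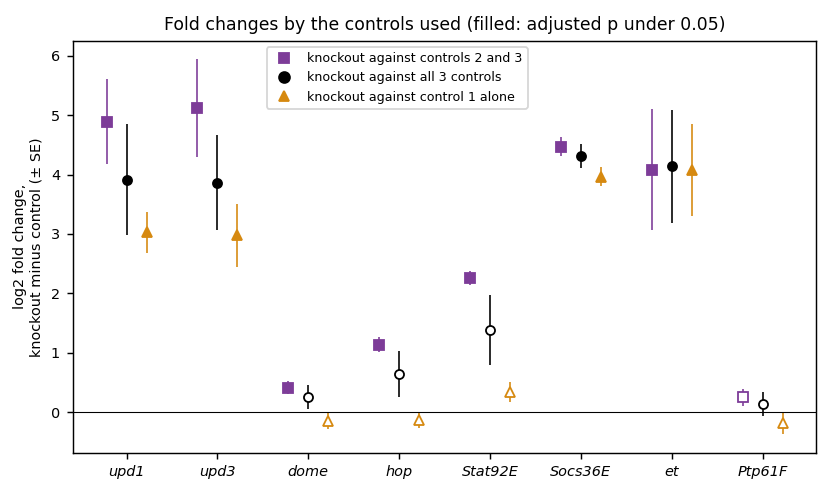
Log2 fold changes, knockout minus control, of the 8 tested JAK-STAT genes against controls 2 and 3 (squares), all 3 controls (circles) and control 1 alone (triangles), with SE as bars and calls filled. Values of Socs36E and et lie between 3.97 and 4.47 in these control sets. Those of upd1 run between 3.03 and 4.89, those of upd3 between 2.98 and 5.12, and those of Stat92E between 0.34 and 2.26.

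Gene length moved with this spread among controls. Stat92E has 5210 annotated exon bases and hop 5055, and the 403 genes with 5000 to 6000 bases had a median log2 ratio of control 1 over controls 2 and 3 of 0.54. Stat92E stood at 1.76 and hop at 1.11, which placed them at the 95.5 and 80.9 percentile of those genes. The receptor gene dome, with 4875 bases, stood at 0.41 beside a median of 0.34 for 572 genes of 4000 to 5000 bases. Ptp61F, with 6069 bases, stood at 0.29, below the median of 0.73 for its length. The same 403 genes had a median log2 ratio of 0.42 for the knockout over controls 2 and 3, and of -0.14 for the knockout over control 1. The part of length in the differences of hop and Stat92E was not tested.

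**Figure D3:**
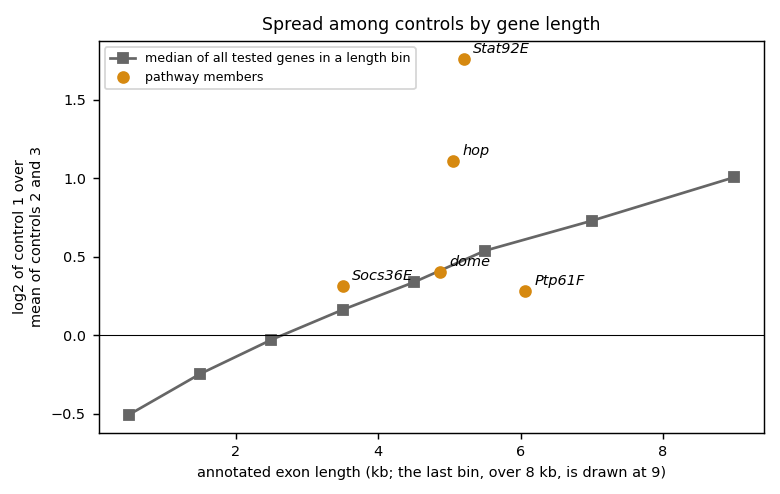
Log2 ratio of control 1 over the mean of controls 2 and 3 (vertical axis) by annotated exon length in kilobases (horizontal axis). Squares are medians of all tested genes with a mean over 1 CPM per length bin, from -0.51 up to 1000 bases to 1.01 over 8000 bases, and circles are 5 JAK-STAT genes, of which Stat92E (1.76) and hop (1.11) lie above the line and Ptp61F (0.29) below it.

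Among the inhibitors, Socs36E had the clearest difference of all members. Socs36E (2L, 18138675 to 18152417, minus strand), the feedback inhibitor that Stat92E itself transcribes, was at 98.1 and 108 CPM in the knockout and at 6.13, 5.33 and 4.33 CPM in the control. The knockout libraries were within 10 CPM of each other and all controls were under 7 CPM. The log2 fold change was 4.31 (SE 0.20, adjusted p = 0.000331), a 19.8-fold difference, and it ranked at 380 from the top of 9241 tested genes. The call held under all 17 alternatives tried, with fold changes between 3.97 and 5.24 and a highest adjusted p of 0.00666. With control 1 alone the log2 fold change was 3.97 and without control 1 it was 4.47.

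The phosphatase gene Ptp61F (3L, 1342493 to 1475257, minus strand), whose product removes phosphate from Stat92E and Hopscotch, was at 233 and 194 CPM in the knockout and at 227, 189 and 184 CPM in the control. The groups overlapped, and the log2 fold change was 0.14 (SE 0.21, adjusted p = 0.607). The next values describe the balance between members per kilobase. Socs36E relative to Stat92E was at 0.400 and 0.427 in the knockout and at 0.0335, 0.0935 and 0.0858 in the control. Stat92E relative to hop was at 2.97 and 2.92 in the knockout and at 2.12, 1.31 and 1.40 in the control. Neither pair of groups overlapped. For each the exact two-sided permutation p, from doubling the smaller tail, was 0.2, the smallest that doubling allows in this design.

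In the knockout, Stat92E had the highest level per kilobase (70.9 ± 1.34 CPM per kilobase), followed by dome (35.8 ± 1.50), Ptp61F (35.2 ± 4.53), Socs36E (29.4 ± 1.90) and hop (24.1 ± 0.741). Of these neighbours, dome and Ptp61F, and Ptp61F and Socs36E, did not differ beyond their SD. In the control, the order was Ptp61F (33.0 ± 3.91), dome (30.8 ± 5.22), Stat92E (27.6 ± 21.3), hop (15.8 ± 7.76) and Socs36E (1.50 ± 0.257). There Ptp61F and dome overlapped, and hop was below Ptp61F, dome and Stat92E in every control. The place of Stat92E in the control differed by library: at 52.2 CPM per kilobase it was the highest member in control 1, as in the knockout, and at 16.3 and 14.4 it was below Ptp61F and dome in controls 2 and 3. The ligands and et came last in both genotypes, with upd1 at 2.92 ± 0.397 in the knockout and 0.173 ± 0.168 in the control.

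In all, 4 of the 8 tested members were called, all of them higher, where 41.5% of all tested genes were called, 22.7% higher and 18.7% lower. The groups did not overlap for 5 of the 8, against 68.1% of all tested genes. The median log2 fold change of the 8 was 2.63, beside 0.11 for all tested genes. Of the 9 members, upd2 failed the filter on low counts, and upd3 and et passed it only through the knockout libraries, so these counts and the median are descriptions. In ranges over the 17 alternatives, upd1 lay between 3.03 and 4.90, upd3 between 2.74 and 5.12 and et between 3.69 and 5.06. When libraries were scaled on vas, aub, otu and ovo, the median of all tested genes was 1.02, 91.5% of all calls were higher, against 54.9% in the reported fit, and all 8 tested members were called higher. Relative to that median, Socs36E stood at 4.22, Stat92E at 1.36, hop at 0.58, dome at 0.16 and Ptp61F at 0.05.

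The 3 further lists from textbook knowledge place these genes in the pathway. Of 12 other regulators, 1 rose and 2 fell, with a median of -0.0032, beside 22.7% higher and 18.7% lower over all tested genes. TSG101, an endosomal sorting factor, was at 102 and 97.6 CPM in the knockout and at 58.6, 61.5 and 45.0 CPM in the control (log2 fold change 0.91, SE 0.19, adjusted p = 0.0139). Socs44A, a relative of Socs36E, was at 16.0 and 22.5 CPM in the knockout and at 34.4, 47.2 and 48.4 CPM in the control (log2 fold change -1.13, SE 0.22, adjusted p = 0.012). It moved in the direction opposite to Socs36E. With germ line scaling it was at -0.25 (adjusted p = 0.465), where the median of all tested genes was 1.02. CycD is a cyclin whose complex binds Stat92E. It was at 70.8 and 76.5 CPM in the knockout, against 108, 137 and 141 CPM in the control. Its log2 fold change was -0.76 (SE 0.18, adjusted p = 0.0194). Under germ line scaling CycD was at 0.13, also below the median of 1.02. None of these 3 was called without knockout 1 (adjusted p = 0.102 to 0.148) or without knockout 2 (adjusted p = 0.064 to 0.155), and TSG101 was not called without control 2 (adjusted p = 0.0512).

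The remodelling factor gene E(bx) and the bromodomain gene BRWD3 were not called in the reported fit, and their directions differed with the controls used. For E(bx), the knockout libraries at 448 and 447 CPM lay between control 1 at 952 CPM and controls 2 and 3 at 376 and 267 CPM. With control 1 alone, E(bx) was called lower at -1.19 (adjusted p = 0.000272), and without control 1 it was called higher at 0.53 (adjusted p = 0.0152). BRWD3 showed the same arrangement, with 170 and 170 CPM in the knockout, against 286, 141 and 149 CPM in the control. BRWD3 was at -0.85 with control 1 alone, and at 0.28 and not called without control 1 (adjusted p = 0.0565). With germ line scaling and all controls kept, it was called higher at 0.81 (adjusted p = 0.0394), below the median of 1.02 for all tested genes. The depth class term gave -1.07 for E(bx) (adjusted p = 0.00163) and -0.73 for BRWD3 (adjusted p = 0.00209).

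Among 10 ovarian genes downstream of the pathway or acting with it, 6 rose and 0 fell, with a median of 1.90, where 22.7% of all tested genes were called higher. The list sets no expected direction per gene, so this count is a description and not a measure of pathway activity. The retinal determination gene eya, which marks follicle cells other than polar and stalk cells, was at 183 and 167 CPM in the knockout and at 16.2, 20.6 and 13.7 CPM in the control (log2 fold change 3.43, SE 0.22, adjusted p = 0.000516). Fas3, an adhesion protein of young follicle cells and polar cells, was at 298 and 309 CPM in the knockout, against 48.8, 32.3 and 34.4 CPM in the control (log2 fold change 3.01, SE 0.24, adjusted p = 0.000782). The border cell coactivator gene tai was at 182 and 186 CPM in the knockout and at 44.1, 22.7 and 19.4 CPM in the control (log2 fold change 2.701, SE 0.38, adjusted p = 0.00393). Its size depended on control 1, with 1.96 against control 1 alone and 3.18 without control 1. The gene chinmo, a Stat92E target in testis stem cells, was at 21.7 and 20.1 CPM in the knockout and at 1.82, 0.355 and 1.93 CPM in the control (log2 fold change 3.90, SE 0.60, adjusted p = 0.00516, but adjusted p = 0.0651 without knockout 1).

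Also called higher were mirr (1.60), which patterns the follicle epithelium, and the BMP ligand gene dpp (2.21). The feedback regulator apt was at 333 and 264 CPM in the knockout, against 254, 119 and 99.5 CPM in the control and was not called (log2 fold change 0.96, adjusted p = 0.128), but was called at 1.51 without control 1 (adjusted p = 5.74e-05). The border cell gene jing was at 93.0 and 94.3 CPM in the knockout, within the control range of 40.7 to 113 CPM (log2 fold change 0.53, adjusted p = 0.402). It was called higher at 1.19 without control 1 (adjusted p = 2.58e-05) and lower at -0.37 with control 1 alone (adjusted p = 0.0231). The border cell factor slbo had 3.89 and 3.89 CPM in the knockout, against 2.38, 1.78 and 0.866 CPM in the control, and was not called (log2 fold change 1.23, SE 0.56, adjusted p = 0.130).

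Of 11 stress and immune targets known from fat body, hemocytes or gut, 6 were tested, and 4 of these rose and 0 fell, beside the same 22.7% called higher over all tested genes. The thioester protein gene Tep2 was at 105 and 86.9 CPM in the knockout and at 8.10, 2.13 and 1.35 CPM in the control (log2 fold change 4.54, SE 0.72, adjusted p = 0.00579). Tep4 was at 251 and 236 CPM in the knockout and at 75.2, 27.9 and 23.7 CPM in the control (log2 fold change 2.55, SE 0.53, adjusted p = 0.0135). Both depended in size on control 1: without it Tep2 was at 5.86 and Tep4 at 3.29, and against it alone they were at 3.47 and 1.60, all called. The virus-induced gene vir-1 was at 68.6 and 80.5 CPM in the knockout and at 11.7, 17.3 and 29.6 CPM in the control (log2 fold change 1.98, SE 0.38, adjusted p = 0.0103). The stress peptide gene TotA was at 4.35 and 1.07 CPM in the knockout and at 0.122, 0 and 0 CPM in the control (log2 fold change 5.29, SE 1.21, adjusted p = 0.0184). TotC and TotM were under 2 CPM in every library and not called (adjusted p = 0.0528 and 0.676). TotA, TotC and TotM passed the filter only through the knockout, and TotA was not called against control 1 alone (4.37, adjusted p = 0.0563). The calls of vir-1, Tep4 and TotA were lost without knockout 1 and without knockout 2, that of Tep2 without knockout 1 (adjusted p = 0.0534) and that of Tep4 also without control 2 (adjusted p = 0.0542).

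**Figure D4:**
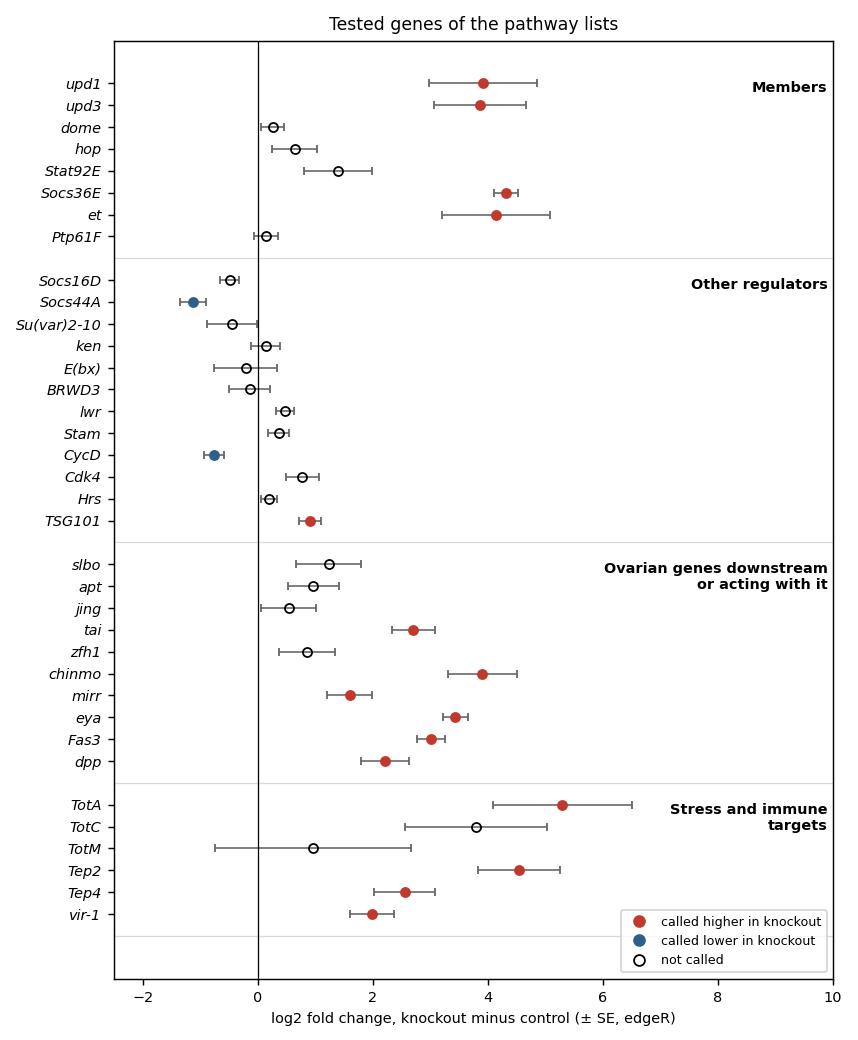
Log2 fold changes, knockout minus control, with SE from edgeR, of the tested members and of the 3 further pathway lists. Filled circles mark the calls, which are 4 of 8 members, 3 of 12 other regulators, 6 of 10 ovarian genes and 4 of 6 stress and immune targets.

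Markers of several somatic cell types moved with the ligands and Socs36E. The counts of called markers stand beside 22.7% higher and 18.7% lower over all tested genes. Whole ovary libraries cannot tell more cells of a type from more RNA per cell. Terminal filament and cap cell markers summed to 22.8 and 19.8 CPM in the knockout and to between 0.481 and 2.43 CPM in the control, and 3 of 4 tested rose. All 4 passed the filter on low counts only through the knockout libraries, so this count is a description, and en and inv failed the filter. Escort cell markers summed to 41.8 and 42.4 CPM in the knockout, against between 2.13 and 5.96 CPM in the control, and 4 of 4 rose, of which Wnt6 passed the filter only through the knockout. Of the 3 polar cell markers, which include upd1 itself, Fas3 and upd1 rose, while neur was lower, at 21.9 and 29.0 CPM in the knockout against 51.8, 36.6 and 40.0 CPM in the control (log2 fold change -0.72, SE 0.22, adjusted p = 0.0465).

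Hemocyte markers summed to 342 and 345 CPM in the knockout and to between 97.1 and 117 CPM in the control. Most of these sums came from Pxn and srp. Pxn was at 192 and 226 CPM in the knockout and at 14.4, 10.2 and 6.06 CPM in the control. The gene srp was at 141 and 111 CPM, against 100, 85.9 and 91.5 CPM. Hml was at 7.68 and 7.17 CPM in the knockout, and eater at 1.13 and 0.920 CPM. Of the hemocyte markers, He had under 3 counts over each group. NimC1 had 4 and 2 counts in the knockout and under 3 over the controls, and neither was tested. Of the 4 tested, Hml and Pxn rose, while srp (log2 fold change 0.49, adjusted p = 0.0973) and eater (2.74, adjusted p = 0.112) were not called. The gene eater passed the filter only through the knockout. Muscle markers summed to 4540 and 4529 CPM in the knockout and to between 372 and 714 CPM in the control, with 7 of 8 higher. Fat body markers summed to 171 and 108 CPM in the knockout and to between 31.5 and 53.6 CPM in the control, with 1 of 4 higher. Germ line markers summed to 1458 and 1805 CPM in the knockout and to between 2963 and 4022 CPM in the control, with 4 of 7 lower. Follicle cell markers, which include late eggshell genes, summed to 4084 and 3411 CPM in the knockout, against between 12050.3 and 13061 CPM in the control, with 2 higher and 5 lower of 9. Gut markers summed to 1.52 and 1.45 CPM in the knockout, against 64.9 CPM in control 1 and 0.118 and 0.193 CPM in controls 2 and 3, and none of 4 was called. Neuron markers summed to 21.4 and 21.4 CPM in the knockout and to between 5.13 and 6.51 CPM in the control, and 1 of 3 tested rose. The spermatheca gene Send1 rose, at 13.7 and 4.87 CPM in the knockout and 0 in every control. Testis markers stayed under 1 CPM in every library, and aly, the 1 tested, was called higher. Send1 and aly passed the filter only through the knockout. So did 2 of the 4 tested fat body markers, 2 of the 3 neuron markers and 2 of the 4 gut markers, none of them called higher. The part of these cell types in the values of the pathway genes was not tested.

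The nearest protein-coding genes on either side of the members, outside the members themselves, numbered 13. Genes that overlap a member, among them Zw at et and those overlapping Ptp61F, were left out of this count. Of these, 11 were tested, 1 rose and 3 fell, beside 22.7% higher and 18.7% lower over all tested genes, and nothing particular to the neighbours is read from that count. Socs36E and CG17681 lie on opposite strands with their starts facing each other across 705 bases. CG17681 had 288 counts over the knockout libraries and 0 over the controls, a level at least 66.4-fold higher, taking 3 counts over the 3 controls as the floor, and edgeR called it (adjusted p = 0.00757). It passed the filter only through the knockout. On the other side of Socs36E, kel, which encodes a ring canal protein, was at 62.8 and 73.1 CPM in the knockout and at 92.5, 72.1 and 77.4 CPM in the control (log2 fold change -0.21, adjusted p = 0.382).

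The members dome and hop also have an upstream neighbour on the opposite strand. Ubqn, 289 bases from dome, was at -0.36 (adjusted p = 0.121), and Tim8, 346 bases from hop, was at -0.27 (adjusted p = 0.460). The 3 neighbours that fell were Pa1 beside hop (log2 fold change -1.56, adjusted p = 0.0198), Ssu72 beyond et (log2 fold change -0.86, adjusted p = 0.0129) and stet beside Ptp61F (log2 fold change -1.15, adjusted p = 0.0404). CG15059, the protein-coding gene between upd2 and upd3, was listed at 0 in every library. Next to upd1 on its other side, 4832 bases away, CG6023 was at 4.51 and 5.12 CPM in the knockout and at 7.18, 7.34 and 4.24 CPM in the control, and was not called (adjusted p = 0.514).

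The genes with a pattern most like that of a member were sought among 6612 tested genes with a mean of at least 10 CPM, by the root mean square difference of log2(CPM + 0.5), centred per gene, over the 5 libraries. Since these genes were chosen for their values in the same libraries, their calls and the split among controls follow from the choice and are a description. For Stat92E these were mgl (0.03), chico (0.09), Nrx-IV (0.09), CG33981 (0.10) and wnd (0.10). None of them was called (adjusted p = 0.0651 to 0.166), and mgl had 299 and 295 CPM in the knockout, against 223, 71.5 and 59.8 CPM in the control, the same split between control 1 and the other controls as Stat92E. For Socs36E they were CG5612 (0.11), side-V (0.16), CG5758 (0.17), nord (0.20) and CG7702 (0.20). All 5 were called higher (adjusted p = 0.00024 to 0.000771), with CG5612 at 115.3 and 122 CPM in the knockout and at 5.86, 6.51 and 4.91 CPM in the control.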

How the data were processed

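The authors deposited 1 table of unscaled estimated counts, also called expected counts, which holds 1 value per gene for each of 5 libraries of Trizol-extracted ovary RNA, made with a directional kit per the labels. An estimated count is a read total that Salmon 1.2.1 assigned; STAR 2.7.5b, Trim Galore 0.6.6, FastQC 0.11.8 and dm6 are also named, per the submitters' processing notes, and settings, annotation and strand setting are not given in the sources used here. Gene positions and exon lengths come from Ensembl 115 (dm6 coordinates), where 99.7% of identifiers matched. Counts were rounded, filtered with filterByExpr, scaled by TMM and fitted with edgeR 4.0.16 (robust glmQLFit and glmQLFTest, no covariate). The SE of a log2 fold change is its size over the root of edgeR's F. The filter needs about 0.258 CPM in 2 libraries. Depth was 8448850 to 47805964 counts, and rRNA-named genes took 11.7% to 17.3%. DESeq2 1.42.0, limma 3.58.1, other scalings and filters, left-out libraries, a replicate block and depth were tried as alternatives, and the fits were tested on simulated data. The members, lists and naming rule were chosen with earlier results of these data known. All 9 members were named; each further list gave up to 4 called genes with the smallest p and up to 2 uncalled genes with the highest CPM; mirr, dpp, slbo, Zw and the marker and neighbour genes were named after their values were seen, and the description by gene length, the chromosomal neighbours and the comparison with control 1 alone were added after seeing the data.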

Additional observations from a re-analysis of the deposited data

How the results depend on the processing

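Socs36E kept its call under all 17 alternatives. With single libraries left out, genes called higher ran from 475 to 3352 and lower from 403 to 2731, members higher from 1 to 7, other regulators higher from 0 to 6 and lower from 0 to 3, ovarian genes higher from 3 to 10, and stress and immune targets higher from 0 to 4. With germ line scaling 4972 genes were higher and 460 lower, and 8 members, 7 other regulators and 10 ovarian genes were higher, with 0 other regulators lower. With control 1 alone, an alternative chosen after seeing the data, 3014 genes were lower, 7 other regulators were lower and 2 higher, and 1 ovarian gene was lower. The depth class term gave 6 other regulators lower and 2 higher. DESeq2 and limma-voom each gave 2 other regulators higher. Directions reversed as follows. With control 1 alone dome was at -0.14, hop at -0.14, Ptp61F at -0.18 and jing at -0.37, and with a depth class term they were at -0.025, -0.018, -0.067 and -0.25. With single libraries left out, Ptp61F ran from -0.11 (without knockout 1) to 0.32 and was at -0.00055 without control 2, BRWD3 ran from -0.43 to 0.28 and E(bx) from -0.62 to 0.53, the highest being without control 1. With germ line scaling BRWD3 was at 0.81, E(bx) at 0.77 and CycD, called lower at -0.76 in the reported fit, at 0.13. All 3 were below the median of 1.02 for all tested genes in that scaling. The causes were not tested. Deviations of same-numbered libraries from their group means correlated at 0.05 and 0.04. The deviations of the 2 knockout libraries mirror each other, so these values cannot show whether the numbers pair the libraries. With the replicate block, 1765 genes were higher and 1496 lower, 2 other regulators were higher and 1 lower, and Stat92E was called at 1.32 (adjusted p = 0.0137). The gene upd2 had too few counts to be tested. After a single random thinning to equal totals upd3 lost its call (2.74, adjusted p = 0.0911). In that draw et (3.83, adjusted p = 0.0356) and upd1 (4.67, adjusted p = 0.0116) kept theirs. Of the values for members and named genes, 368 stayed on the same side, 30 lost and 23 gained a call, and 15 reversed.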
